A study of Rattus norvegicus with 12 samples.

Results

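Actb, Gapdh and Ywhaz are genes to which other transcripts are commonly scaled, and their levels were examined in brain and testis of rats with and without a human DNMT3A transgene. They are 3 of the 25908 genes in the deposited table and were taken by identifier, ENSRNOG00000034254 for Actb, ENSRNOG00000018630 for Gapdh and ENSRNOG00000008195 for Ywhaz. The symbols come with that choice of identifiers, since the table itself holds no gene names. The 4 groups, of 3 libraries each, were hDNMT3A brain, wild-type brain, hDNMT3A testis and wild-type testis. All samples came from adult male Sprague Dawley rats aged 15 weeks, and the genotypes differed in carrying human DNMT3A, which encodes an enzyme that methylates cytosines in DNA. The labels do not name the promoter of the transgene, the founder line or the brain region, and they number the samples of a group without saying whether each came from a separate animal. The p-values therefore rest on how far these samples vary, and that variation may be technical.

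Actb encodes the beta form of cytoplasmic actin, the protein of the filaments that shape and move cells. Gapdh encodes the glycolytic enzyme that oxidises glyceraldehyde phosphate, and Ywhaz encodes the zeta member of a family of adaptor proteins that bind phosphorylated serines and threonines. A reference gene serves to correct for the amount of RNA put into an assay, which is sound only where its own share of the RNA is the same in the samples compared. In late germ cells of mice and rats, glycolysis runs through a separate isoenzyme encoded by Gapdhs. Values of Gapdhs, of the other actins and of other common reference genes were not analysed here, because 0 of the 25908 identifiers could be paired with a symbol in the reference table, and for the same reason the tissues were not checked against named cell markers.

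Levels are given in FPKM, the fragments of a gene scaled to its length and to the total of the library. Whole reads could be recovered from the steps of these values (14004547 to 16112149 per library), and so could the gene lengths used for them, 1395 bases for Actb, 1002 bases for Gapdh and 2406 bases for Ywhaz. Wild-type brain replicate 2 stood apart from the other brain libraries. In it, 203 genes that were abundant in testis (at least 100 FPKM) and low in brain (median of at most 0.5 FPKM) reached 1.59% of their testis level, against 0.0511% to 0.165% in hDNMT3A brain and 0.0616% to 0.330% in the remaining wild-type brain libraries. A testis share of that size would make up 0.949% of the Actb value in that library, 0.110% of the Gapdh value and 0.339% of the Ywhaz value. FPKM is scaled to the library total, so it would also take the place of brain reads, which these percentages leave out. How reads shared with near-identical sequences were counted is not given in the sources used here. The levels of Actb, which resembles the gamma actin gene, and of Gapdh, which has processed copies in rodent genomes, are uncertain to that extent.

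The first comparison asked how far the 3 genes differed between brain and testis. All 3 were higher in brain than in testis in both genotypes, but by very unequal amounts, about 2-fold for Actb, 5-fold for Ywhaz and 16- to 17-fold for Gapdh. No brain library overlapped a testis library for any of them, which was so with brain on the higher side for 47.7% of the genes tested in hDNMT3A rats and 48.8% in wild-type rats. In bulk tissue, a lower share of cells that hold a transcript and a lower level per cell cannot be told apart. Most genes differed between these tissues. In limma's test on log2(FPKM + 0.5), with a Benjamini-Hochberg adjusted p under 0.05 taken as a call, 47.6% of the genes tested were called higher in brain in hDNMT3A rats (7666 of 16102) and 48.2% in wild-type rats (7774 of 16115). That all 3 genes were called higher in brain is to be read against those shares.

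Actb was the most abundant of the 3 in each tissue and the least different between them. It stood at 1367, 1478 and 1550 FPKM in hDNMT3A brain, against 704, 721 and 813 FPKM in hDNMT3A testis. In wild-type rats it stood at 1354, 1207 and 1252 FPKM in brain, against 720, 663 and 693 FPKM in testis. The lowest brain value was thus 1.68-fold above the highest testis value in either genotype. The mean level was 1465 ± 92.3 FPKM in hDNMT3A brain and 746 ± 59.0 FPKM in hDNMT3A testis, and 1271 ± 74.9 FPKM in wild-type brain and 692 ± 28.7 FPKM in wild-type testis (SD, n = 3 each). The log2 difference, brain minus testis, was 0.97 in hDNMT3A rats (SE 0.090, limma adjusted p = 1.69e-05) and 0.88 in wild-type rats (SE 0.060, limma adjusted p = 9.59e-06). Only 17 genes were more abundant than Actb in brain by mean FPKM over the 6 libraries, and 65 were in testis.

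Gapdh differed most. It stood at 832, 1005 and 959 FPKM in hDNMT3A brain, against 51.3, 55.2 and 65.0 FPKM in hDNMT3A testis. In wild-type rats it stood at 913, 789 and 991 FPKM in brain, against 53.0, 53.2 and 50.2 FPKM in testis. The groups were more than 10-fold apart at their nearest points, with the lowest brain value 12.8-fold above the highest testis value in hDNMT3A rats and 14.8-fold in wild-type rats. The log2 difference was 4.02 in hDNMT3A rats (SE 0.11, limma adjusted p = 1.68e-08) and 4.09 in wild-type rats (SE 0.089, limma adjusted p = 8.11e-08). As folds these were 16.2 (95% interval 13.5 to 19.5) and 17.0 (14.6 to 19.7). By mean FPKM, 26 genes lay above Gapdh in brain and 1943 did in testis. Its reads numbered 11068 to 15812 in a brain library and 775 to 1049 in a testis library.

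Ywhaz lay between them. It stood at 616, 699 and 620 FPKM in hDNMT3A brain, against 124, 124 and 133 FPKM in hDNMT3A testis. In wild-type rats it stood at 606, 598 and 628 FPKM in brain, against 123, 131 and 127 FPKM in testis. The log2 difference was 2.34 in hDNMT3A rats (SE 0.079, limma adjusted p = 4.43e-08) and 2.26 in wild-type rats (SE 0.047, limma adjusted p = 7.21e-08), or 5.05-fold (95% interval 4.44 to 5.74) and 4.79-fold (4.42 to 5.18). Ywhaz was exceeded by 48 genes in brain and by 817 in testis.

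**Figure D1:**
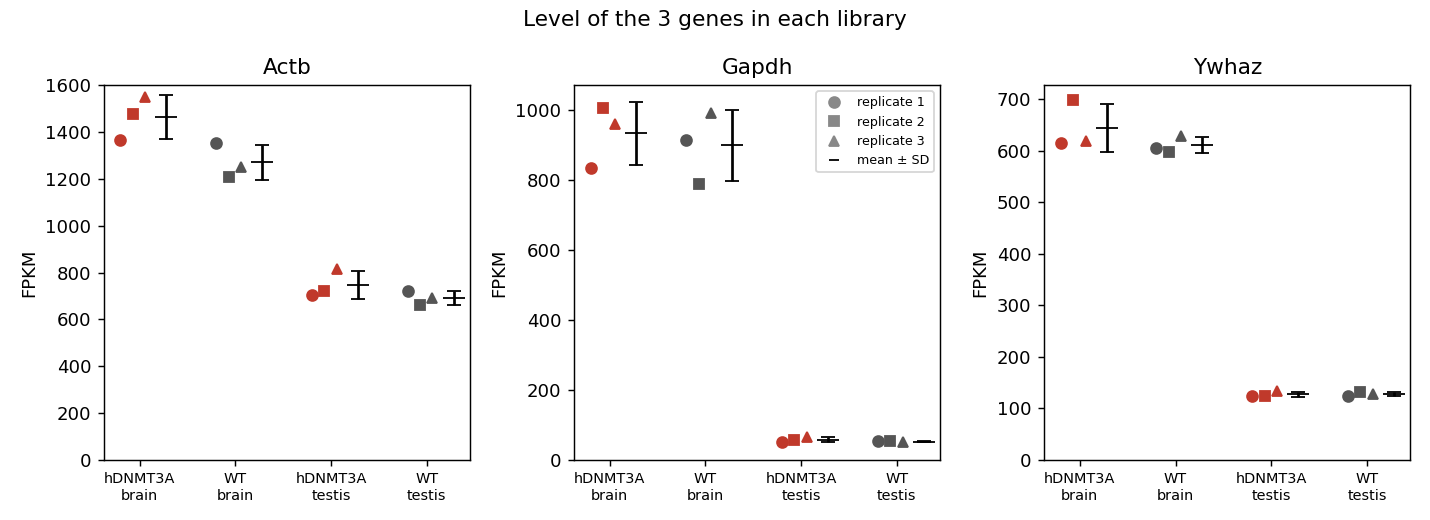
FPKM of Actb, Gapdh and Ywhaz (vertical axes, each from 0) in the 12 libraries, with 1 point per library (red, hDNMT3A; grey, wild type; the shape gives the replicate number) and, to the right of each group, its mean ± SD (n = 3). Every brain library lies above every testis library for each gene, and the drop is shallow for Actb and deep for Gapdh.

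The order of the 3 genes also differed between the tissues. In brain, per length, Actb was highest at 1207 to 1550 FPKM, Gapdh followed at 789 to 1005 FPKM and Ywhaz was lowest at 598 to 699 FPKM. In testis Actb was again highest at 663 to 813 FPKM, but Ywhaz came next at 123 to 133 FPKM and Gapdh was lowest at 50.2 to 65.0 FPKM. Neighbours in these orders did not overlap in any of the 6 libraries of a tissue. Over all 12 libraries the coefficient of variation (SD as a percent of the mean) was 33.7% for Actb, 69.6% for Ywhaz and 93.5% for Gapdh, against at most 9.79% within a tissue.

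The size of the difference was set beside that of all genes. In hDNMT3A rats the median size of the tissue difference over the 16102 genes tested was 1.85 on the log2 scale, and 28.9% of genes differed less than Actb, 59.5% less than Ywhaz and 82.8% less than Gapdh. In wild-type rats the median was 1.87 over 16115 genes, and the shares were 25.6%, 57.9% and 83.9%. Many of those genes are restricted to 1 tissue, which a reference gene would not be. Among the genes that averaged at least 50 FPKM in brain and in testis alike, a limit chosen after the values were seen, the median size was 0.67. Of the 500 others, 309 (61.8%) differed less between the tissues than Actb, 463 (92.6%) less than Ywhaz and 498 (99.6%) less than Gapdh. Gapdh lies just inside the class in testis, and the limit leaves out genes that are low in 1 tissue. A gene of the class can differ as much as Gapdh only if it is very abundant in the other tissue. The share for Gapdh therefore follows largely from the limit. In the class of at least 100 FPKM in each tissue, 111 of 170 genes lay within 2-fold between the tissues and 84 within 1.5-fold. Genes of like level gave lower shares. They averaged within 2-fold of the member over the 12 libraries and at least 1 FPKM in each tissue. Among them, 7.14% of 42 differed less than Actb, 33.2% of 259 less than Ywhaz and 41.7% of 168 less than Gapdh. Their median sizes were 4.50, 4.50 and 5.23, so many of them lay far lower in 1 tissue.

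The next comparisons asked whether the 3 genes differed between hDNMT3A and wild-type rats. None was called in either tissue. The background was low, since limma called 0.116% of 13827 genes in brain and 0.576% of 14572 genes in testis. With so few calls over all genes, the lack of a call says little about steadiness. By size, 77.7% of the genes tested in brain differed less than Actb, 41.6% less than Ywhaz and 31.8% less than Gapdh. In testis the shares were 49.5%, 0.528% and 55.9%. Among the genes of like level described above, they were 47.6%, 26.6% and 17.3% in brain, and 81.0%, 0.772% and 81.0% in testis. Actb in brain came nearest to a difference. The hDNMT3A brain values given above all lay above the wild-type brain values, but the lowest of them, 1367 FPKM, was only 1.01-fold above the highest wild-type value of 1354 FPKM. Its mean was 1465 ± 92.3 FPKM in hDNMT3A brain and 1271 ± 74.9 FPKM in wild-type brain (SD, n = 3 each), a log2 difference of 0.20 (SE 0.084, 95% interval 0.0086 to 0.40). The unadjusted limma p was 0.0428 and the adjusted p was 0.616. An unadjusted limma p under 0.05 was reached by 1088 of the 13827 genes tested in brain. Of the genes tested in brain, 6.15% had all hDNMT3A values above all wild-type values.

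Gapdh and Ywhaz overlapped between the genotypes in brain. Gapdh averaged 932 ± 89.7 FPKM in hDNMT3A brain and 898 ± 102 FPKM in wild-type brain, with the highest value of the 6 libraries in the hDNMT3A group and the lowest in the wild-type group. The log2 difference was 0.056 (95% interval -0.20 to 0.32, limma adjusted p = 0.961). Ywhaz averaged 645 ± 47.0 FPKM in hDNMT3A brain and 611 ± 15.7 FPKM in wild-type brain, and hDNMT3A replicate 2, at 699 FPKM, stood above the other 5. Its log2 difference was 0.076 (95% interval -0.099 to 0.25, limma adjusted p = 0.902).

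In testis the groups overlapped for all 3 genes. Actb averaged 746 ± 59.0 FPKM in hDNMT3A testis and 692 ± 28.7 FPKM in wild-type testis, a log2 difference of 0.11 (95% interval -0.053 to 0.27, limma adjusted p = 0.631). Gapdh averaged 57.1 ± 7.05 FPKM in hDNMT3A testis and 52.1 ± 1.67 FPKM in wild-type testis, a log2 difference of 0.13 (95% interval -0.088 to 0.34, limma adjusted p = 0.684). For both, hDNMT3A replicate 3 was the highest of the 6 testis libraries, and without it the log2 difference was 0.042 for Actb and 0.030 for Gapdh. Without hDNMT3A replicate 1, the lowest of its group for both, it was 0.15 for Actb and 0.20 for Gapdh. These were the extremes when single libraries were left out, and neither gene was called in any of those fits. Ywhaz was the closest match between genotypes, at 127 ± 5.39 FPKM in hDNMT3A testis and 127 ± 3.93 FPKM in wild-type testis. Its log2 difference was -0.0011 (limma adjusted p = 0.995), and the 95% interval of the fold ran from 0.916 to 1.09.

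Whether the genotype difference itself differed between the tissues was tested over all 12 libraries. The interaction, brain minus testis, was 0.098 for Actb (95% interval -0.14 to 0.34, limma adjusted p = 0.892), -0.069 for Gapdh (-0.40 to 0.27, adjusted p = 0.969) and 0.078 for Ywhaz (-0.12 to 0.28, adjusted p = 0.903) on the log2 scale. None was called, where 0.421% of 10917 genes were. As folds, the widest of these intervals, that of Gapdh, ran from 0.756 to 1.20, and that of Actb from 0.908 to 1.26. With 3 libraries a group, differences within those bounds were compatible with the data. The bounds do not give the smallest difference that could be called.

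**Figure D2:**
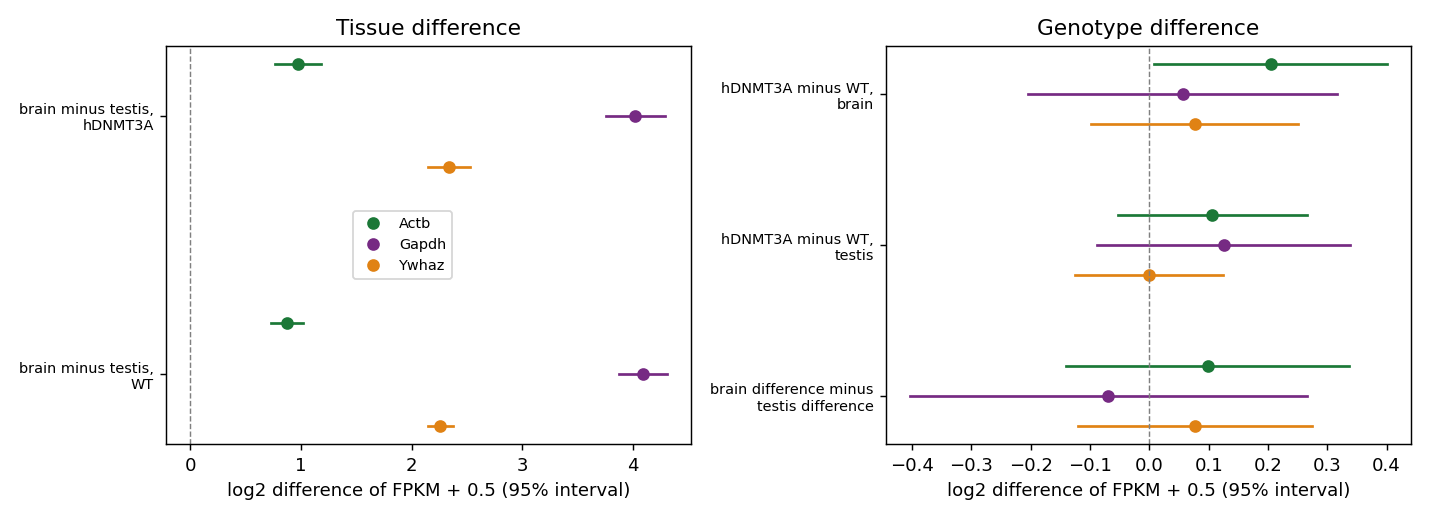
Log2 differences of FPKM + 0.5 (horizontal axes) with 95% intervals from limma for the 3 genes, brain minus testis on the left and hDNMT3A minus wild type, with the interaction, on the right. The tissue differences lie from 0.88 to 4.09. The genotype differences lie from -0.0011 to 0.20 and the interactions from -0.069 to 0.098, on an axis that covers a much narrower range.

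Spread between libraries of the same group was next compared with what counting alone gives. Ywhaz varied least in 3 of the 4 groups and Gapdh most in 3 of the 4. In hDNMT3A brain Actb varied less than Ywhaz, and in wild-type testis Actb varied more than Gapdh. The coefficient of variation of Ywhaz was 7.30% in hDNMT3A brain, 2.56% in wild-type brain, 4.24% in hDNMT3A testis and 3.09% in wild-type testis, while counting its reads would give 0.649% to 1.46%. For Actb it was 6.30% in hDNMT3A brain, 5.89% in wild-type brain, 7.91% in hDNMT3A testis and 4.14% in wild-type testis, against 0.565% to 0.825% from counting. For Gapdh they were 9.62% in hDNMT3A brain, 11.4% in wild-type brain, 12.3% in hDNMT3A testis and 3.20% in wild-type testis. Counting the fewer Gapdh reads of testis gives 3.39% to 3.55%, so the wild-type testis libraries differed by no more than counting error. Everywhere else, for each of the 3 genes, the spread between libraries was above counting error, which covers the reads only, because copies of 1 molecule made by PCR cannot be told from separate molecules here.

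Pooled over the 4 groups, the SD around the group mean on the log2 scale was 0.066 for Ywhaz, 0.089 for Actb and 0.14 for Gapdh. Over the 10917 genes that averaged at least 1 FPKM in brain and in testis alike the median was 0.15. Less spread was seen for 5.58% of those genes than for Ywhaz, for 15.97% than for Actb and for 47.5% than for Gapdh. Low genes are noisier by counting, so the spread was also set beside classes of more abundant genes. Among the genes of like level described above, 7.72% of 259 had less spread than Ywhaz, 14.3% of 42 less than Actb and 39.3% of 168 less than Gapdh. Their median spreads were 0.18, 0.20 and 0.20, and many of them were low in 1 tissue. The other class was that of at least 50 FPKM in each tissue, chosen after the values were seen. There, the median was 0.10, and 75 of the 500 others (15%) had less spread than Ywhaz, 179 (35.8%) less than Actb and 387 (77.4%) less than Gapdh. In that class 71 genes had both less spread and a smaller tissue difference than Ywhaz, 105 did than Actb and 385 did than Gapdh. The count for Gapdh again depends on the limit of 50 FPKM in each tissue.

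**Figure D3:**
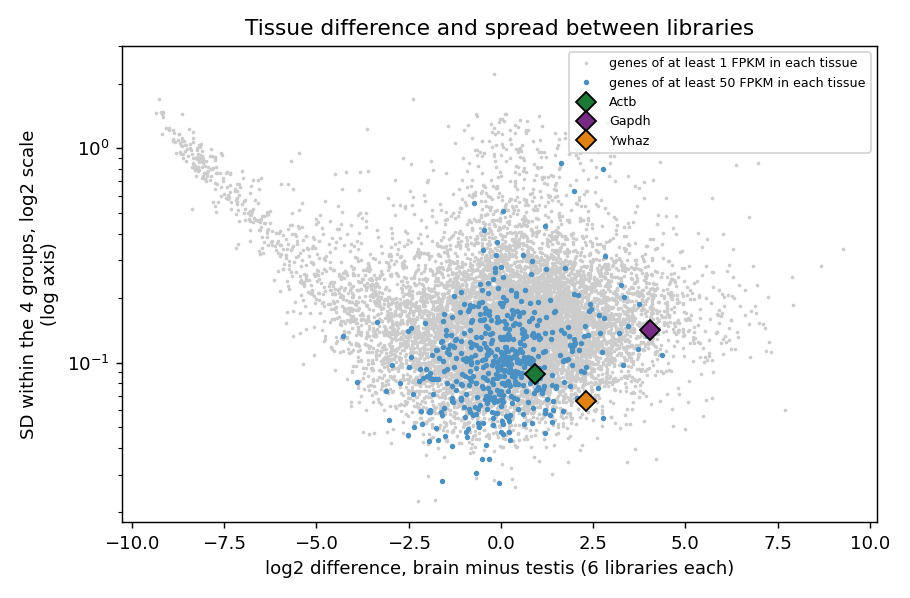
Tissue difference, brain minus testis on the log2 scale (horizontal axis), and SD within the 4 groups on the log2 scale (vertical log axis), with 1 point per gene for 10917 genes of at least 1 FPKM in each tissue (grey), 501 genes of at least 50 FPKM in each (blue) and the 3 genes (diamonds). Ywhaz lies low and far to the right of 0, Gapdh lies farther right and higher, and Actb is the nearest of the 3 to the centre of the blue points.

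The libraries that were low or high for 1 of the genes were often so for the others. In hDNMT3A brain, replicate 1 was the lowest for all 3 genes, at -6.70% from its group mean for Actb, -10.7% for Gapdh and -4.52% for Ywhaz. In wild-type brain, replicate 2 was the lowest for all 3, at -4.99%, -12.1% and -2.14% from its group mean. In hDNMT3A testis, replicate 3 was the highest for all 3, at 9.03%, 13.7% and 4.90% above its group mean. The wild-type testis libraries showed no such order. Wild-type brain replicate 2 had the fewest reads of the 12 libraries (14004547) and hDNMT3A testis replicate 3 the most (16112149). The depth of hDNMT3A brain replicate 1 (15237105) lay between those of replicate 3 (15168234) and replicate 2 (15700711) of its group. The part of depth in these deviations was not tested, and FPKM is already scaled to each library's total.

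A ratio of 2 genes within a library does not depend on the library's total. The ratio of Actb to Gapdh was 1.64, 1.47 and 1.62 in hDNMT3A brain and 1.48, 1.53 and 1.26 in wild-type brain. In testis it was 13.7, 13.1 and 12.5 in hDNMT3A and 13.6, 12.5 and 13.8 in wild-type rats. The mean over the 6 libraries of a tissue was 1.501 in brain and 13.2 in testis, while the ranges of the genotypes overlapped in each tissue. The ratio of Actb to Ywhaz ran from 1.99 to 2.501 in brain and from 5.06 to 6.10 in testis. The ratio of Gapdh to Ywhaz turned over, from 1.32 to 1.58 in the brain libraries and from 0.394 to 0.487 in the testis libraries.

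Within groups the SD of the log2 ratio was 0.10 for Actb to Gapdh, 0.097 for Actb to Ywhaz and 0.11 for Gapdh to Ywhaz. Over all 12 libraries it was 1.64, 0.73 and 0.93. The stability measure M, the mean SD of a gene's log2 ratios to the other genes, ran from 0.11 to 0.13 over the 6 brain libraries and from 0.081 to 0.10 over the 6 testis libraries. With both tissues together it was 1.18 for Actb, 1.28 for Gapdh and 0.83 for Ywhaz. Ywhaz, whose tissue difference lies between those of the others, had the lowest value there, and in testis alone it had the highest, 0.10.

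**Figure D4:**
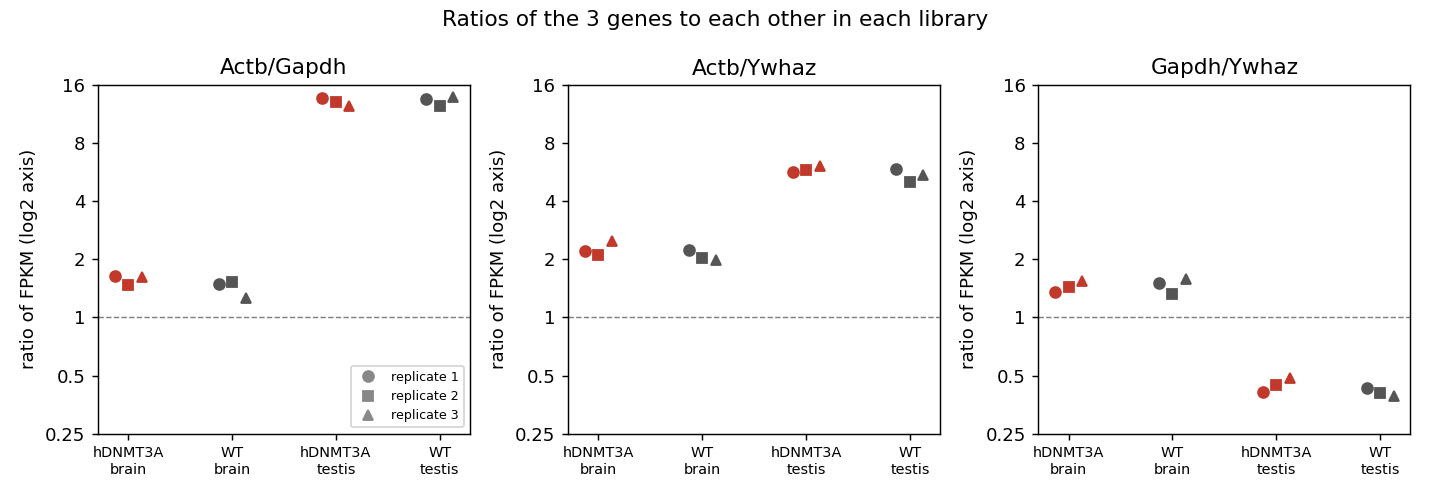
Ratios of FPKM for each pair of genes in the 12 libraries (vertical log2 axes; red, hDNMT3A; grey, wild type; the shape gives the replicate number), with a dashed line at 1. The genotypes overlap within a tissue, and Gapdh to Ywhaz lies above 1 in brain and below 1 in testis.

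Scaling every library to a reference gene takes about that gene's tissue difference off the log2 difference of every other gene, so the counts that follow restate the tissue differences above by what they do to calls. With FPKM as deposited, 7666 genes were called higher and 6676 lower in brain than in testis in hDNMT3A rats, and 7774 higher and 6688 lower in wild-type rats. Scaled to Actb, the calls were 5229 higher and 8839 lower in hDNMT3A rats and 5564 higher and 8530 lower in wild-type rats. Scaled to Ywhaz they were 2866 and 11709 in hDNMT3A rats and 3070 and 11585 in wild-type rats. Scaled to Gapdh they were 1397 and 13713 in hDNMT3A rats and 1388 and 13756 in wild-type rats. Under Gapdh, 9.25% of the calls in hDNMT3A rats and 9.17% in wild-type rats were thus higher in brain, against 53.5% in hDNMT3A and 53.8% in wild-type rats for the deposited values.

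Scaled to the geometric mean of the 3 genes, all of them higher in brain, the calls were 2745 higher and 11868 lower in hDNMT3A rats and 2854 higher and 11821 lower in wild-type rats. The median log2 difference of all genes was 0.21 in hDNMT3A and 0.23 in wild-type rats as deposited, -0.68 and -0.57 under Actb, -1.92 and -1.83 under Ywhaz, -3.42 and -3.46 under Gapdh and -2.02 and -1.97 under the mean of the 3. None of these scalings measures the amount of RNA per cell, so the data do not say which split is right.

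**Figure D5:**
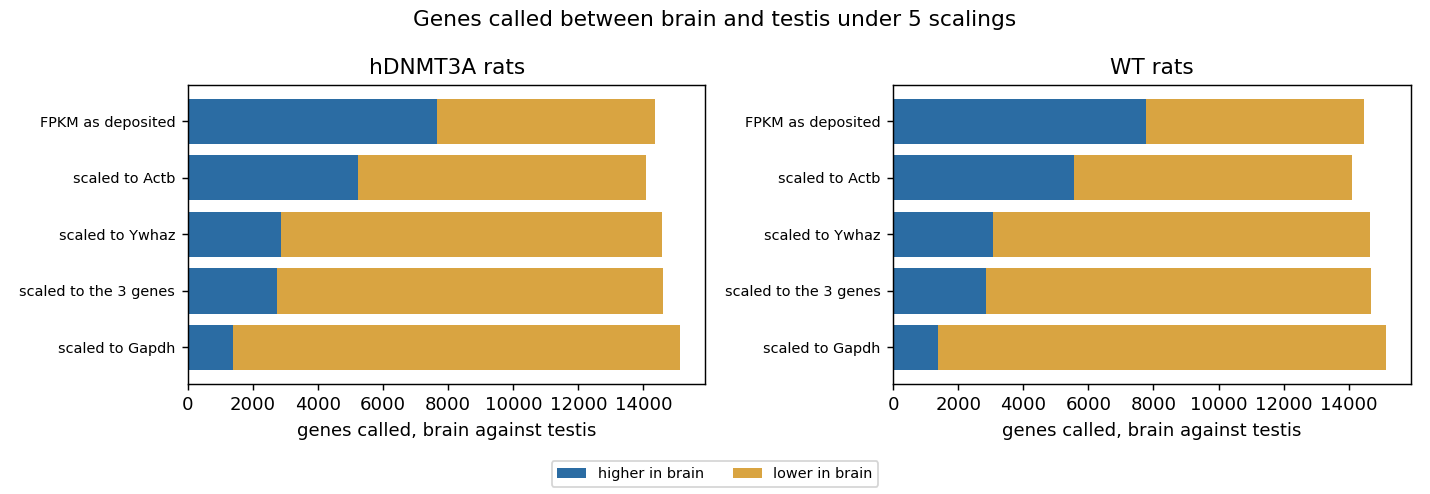
Number of genes called higher (blue) and lower (yellow) in brain than in testis (horizontal axes) in hDNMT3A rats on the left and wild-type rats on the right, with FPKM as deposited and with each library scaled to 1 gene or to the geometric mean of the 3. The blue part shrinks to 1397 of 15110 calls in hDNMT3A and 1388 of 15144 calls in wild-type rats under Gapdh.

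Between genotypes the calls were fewer. In brain, scaling to Actb gave 34 calls, 5 higher and 29 lower in hDNMT3A than in wild-type rats, against 16 (5 higher and 11 lower) as deposited, and moved the median of all genes by 0.19 toward lower values. Scaling to Gapdh gave 18 calls in brain, and scaling to Ywhaz or to the 3 genes gave 17. In testis the deposited values gave 84 calls, 38 higher and 46 lower in hDNMT3A rats. Scaling to Ywhaz gave 79, 36 higher and 43 lower, and scaling to Actb gave 101, 31 higher and 70 lower. Scaling to Gapdh gave 85, 25 higher and 60 lower. Of the 84 calls, 76 were shared under Ywhaz, 72 under Actb and 61 under Gapdh, and the median of all genes was 0.020 under Ywhaz, -0.080 under Actb and -0.099 under Gapdh, against 0.019 as deposited. The 46 interaction calls were 46 under Actb, 34 of them shared, 46 under Ywhaz, 36 of them shared, and 23 under Gapdh, 19 of them shared.

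The genes with the most similar pattern over the 12 libraries were sought by Pearson correlation of log2(FPKM + 0.5) among 16100 genes. The libraries fall into tissues, so these values describe mainly the step between brain and testis and carry no test. For Gapdh 2958 genes and for Ywhaz 2993 genes reached an r above 0.99, while for Actb 13 did. The closest to Actb was ENSRNOG00000053452 (r = 0.995), which averaged 122 FPKM in brain and 61.2 FPKM in testis, a 2.00-fold difference close to that of Actb. The closest to Gapdh was ENSRNOG00000034066 (r above 0.999), which averaged 402 FPKM in brain and 46.7 FPKM in testis, 8.61-fold higher in brain. The closest to Ywhaz (r above 0.999) averaged 111 FPKM in brain and 1.41 FPKM in testis, 79.0-fold higher in brain, against about 5-fold for Ywhaz. The second closest to Actb (r = 0.994) was 7.68-fold higher in brain. A high r therefore did not always go with a like size of the tissue difference.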

How the data were processed

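The 12 libraries came to the authors' deposited table as FPKM for 25908 Ensembl identifiers. Trizol RNA and Illumina TruSeq RNA libraries are stated per the labels' protocols, and the submitters' processing notes name Bowtie 1.0.1 and the build Rnor_6.0. No source used here states the counting tool, the annotation or the use of strand. The steps of the values gave back whole reads. In 100% of the genes 1 whole-number length (up to 60000 bases tried) made all 12 values whole within 0.002 reads. Of 2000 genes drawn from those detected in every library, 0% came out whole after noise of 1% was added. The 100% also covers genes detected in few libraries, which some length can make whole more easily. The listed genes held 99.99% of each recovered total. Chi-square values between libraries of the same group were 4.79 to 14.2 per gene, so no pair agreed within sampling noise and none was merged; this does not show that they came from separate animals.

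Comparisons used limma 3.58.1 (R 4.3.3), with its intensity trend, on log2(FPKM + 0.5), which shrinks the fold changes of low genes. Tests were two-sided, adjusted by Benjamini-Hochberg over all genes tested, and limited to genes averaging at least 1 FPKM over the libraries compared (for the interaction, in brain and in testis alike). Each tissue or genotype comparison was fitted on its own 6 libraries and the interaction on 12. For scaling to reference genes, each library was divided by the gene's value relative to its geometric mean. The fits were also run on simulated reads, in which all genes had the same spread, unlike in these data. No statement here rests on that run. Descriptive values used Python 3.11.15 with numpy 2.4.6 and pandas 2.3.3, and plots matplotlib 3.10.9. The members, lists and tests were chosen with earlier results of these data known. The named genes were the 3 members and, by correlation, the genes most like each of them, of which 2 identifiers are printed.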

Additional observations from a re-analysis of the deposited data

How the results depend on the processing

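The tissue calls of the 3 genes held in all 90 fits that changed 1 choice (pseudocount, filter, TPM or median-ratio scaling, trend, joint fit, replicate block, voom on recovered reads, or leaving out each library), and their log2 differences ran from 0.66 to 1.22 for Actb, 3.82 to 4.31 for Gapdh and 2.04 to 2.58 for Ywhaz. No genotype or interaction value of the 3 genes was called in the 150 other fits, whose adjusted p was 0.432 or more. Scaling to the 3 genes themselves is outside these fits, since it makes each tissue difference relative to the gene used: in wild-type rats Actb was -3.22 scaled to Gapdh, -1.39 to Ywhaz and -1.54 to the 3 genes, and Ywhaz was -1.83 scaled to Gapdh and -0.15 to the 3 genes, all called lower in brain. In hDNMT3A rats these were -3.05, -1.37 and -1.47 for Actb and -1.69 and -0.11 for Ywhaz, the last not called (limma adjusted p = 0.189). In wild-type rats Gapdh was 3.22 scaled to Actb, 1.83 to Ywhaz and 1.68 to the 3 genes, and Ywhaz was 1.38 scaled to Actb. In hDNMT3A rats these were 3.05, 1.69, 1.58 and 1.36, and all were called higher in brain. Of all 16115 genes in wild-type rats, 13756 were called lower under Gapdh, 11585 under Ywhaz, 11821 under the 3 genes and 8530 under Actb. No genotype or interaction value was called under those scalings, with a lowest adjusted p of 0.357. Values near 0 changed sign when single libraries were left out, over -0.034 to 0.14 for Gapdh in brain, -0.036 to 0.020 for Ywhaz in testis and -0.16 to 0.026 for the interaction of Gapdh.

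Counts over all genes moved more, and the cause was not tested. In brain, 16 genotype calls became 7 with a pseudocount of 0.1, 9 with TPM scaling, 57 with all 12 libraries in 1 fit, 34 scaled to Actb and 2 to 8 without single libraries. In testis, 84 became 247 with all 12 libraries in 1 fit, 190 with voom and 20 to 80 without single libraries. The 46 interaction calls became 103 without a filter, 23 scaled to Gapdh and 25 to 44 without single libraries. With a replicate block limma called 0 genes in brain (742 at an unadjusted p under 0.05), 39 in testis and 1 for the interaction. Voom without the block called 16 in brain. In the genotype fits of brain and of testis, the block tied hDNMT3A to wild-type libraries of the same number, which cannot come from the same animal. The labels do not say that a number marks a shared animal, which only brain and testis libraries of the same genotype could have. Deviations of such libraries from their group means correlated across genes at -0.0059 to 0.18 for the same number and -0.17 to 0.11 for different numbers. Between genotypes within a tissue, the range was -0.27 to 0.11 for the same number and -0.13 to 0.29 for different numbers. The tissue split was 8264 higher and 6168 lower in brain with TPM scaling in hDNMT3A rats and 8252 and 6242 in wild-type rats, with the median of all genes at 0.45.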
